A study of Mus musculus with 2 samples.

Results

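Complement is a cascade of plasma and cell-surface proteins that tags targets with fragments of C3 and can end in a lytic pore. The set described here holds 9 mouse genes of that system, namely the central component C3, the alternative pathway protease gene Cfb, the classical pathway protease genes C1ra and C1s1, the C1 inhibitor gene Serping1, the membrane regulator genes Cr1l, Cd55 and Cd59a, and C1qbp, which encodes a C1q-binding protein. They were chosen by symbol, and each of the 9 was found as 1 row among the 19498 genes of the deposited table. The libraries were 1 of LY500307-treated 4T1 cells and 1 of control-treated 4T1 cells, with no replicate of either. 4T1 is a metastatic mouse mammary carcinoma line, and LY500307 is a synthetic agonist of estrogen receptor beta. The study asked which RNAs differ between treated and control cells. The sources used here give neither the dose nor the duration, nor what the control cells received.

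The routes called classical, lectin and alternative converge on enzymes called C3 convertases, which cleave C3. Cells protect themselves with membrane regulators that take convertases apart or block the lytic pore, and in the mouse Cr1l, also known as Crry, is the broadly expressed regulator of convertases. The liver makes most plasma complement, but epithelial and tumour cells transcribe part of the cascade, and C3 and Cfb are known as genes that inflammatory cytokines induce.

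The LY500307 library held 15104003 and the control library 14541874 reads, recovered from the deposited values as whole multiples of the value of 1 read. Folds are the treated over the control deposited value, and the range after each is its exact 95% Clopper-Pearson interval, which covers counting error only. The spread between cultures is unknown, so every difference describes these 2 libraries. In bulk RNA, fewer expressing cells and less RNA per cell cannot be told apart. The epithelial markers Epcam, Krt8, Krt18, Krt19, Krt7, Cdh1, Cldn3 and Cldn4 were read in both libraries, with 49176 reads in total in the LY500307 and 53930 in the control library. Myeloid markers, 10 of 12 listed, summed to 369 reads in the LY500307 and 338 in the control library. Most came from Cd68, Cd14, Cd74 and Mrc1. In that order these had 102, 100, 78 and 75 reads in the LY500307 and 81, 85, 68 and 87 in the control library. The leucocyte gene Ptprc had 4 reads in the LY500307 and 2 in the control library. Fibroblast markers, 8 of 8 listed, summed to 369 reads in the LY500307 and 354 in the control library, of which Pdgfra held 285 in the LY500307 and 271 in the control library. Endothelial markers, 4 of 5 listed, summed to 15 reads in the LY500307 and 11 in the control library, and none of 6 hepatocyte markers was listed.

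C3, the component on which all routes converge, and Cr1l, a regulator of its cleavage, had more reads in the LY500307 library. The upstream windows of these genes are shown because they are the members with many reads whose counts were higher after treatment. They are the 250 bases before the annotated start, 5′ to 3′ on the gene's strand, from RefSeq on GRCm38.p6, at chr17:57228137-57228386 on the minus strand for C3 and at chr1:195131571-195131820 on the minus strand for Cr1l. Capitals mark the only match to the motifs searched.
C3: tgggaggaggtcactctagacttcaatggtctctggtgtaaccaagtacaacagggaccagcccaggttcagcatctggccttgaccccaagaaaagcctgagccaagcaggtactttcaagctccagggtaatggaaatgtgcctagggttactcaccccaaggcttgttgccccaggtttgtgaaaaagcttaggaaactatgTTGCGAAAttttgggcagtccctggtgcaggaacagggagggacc
Cr1l: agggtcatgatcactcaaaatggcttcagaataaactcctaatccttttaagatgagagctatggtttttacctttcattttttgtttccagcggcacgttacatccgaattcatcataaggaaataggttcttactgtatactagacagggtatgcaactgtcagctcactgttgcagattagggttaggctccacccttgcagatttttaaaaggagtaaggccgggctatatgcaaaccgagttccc

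The match in C3 reads TTGCGAAA on the gene's strand, spans bases 45 to 38 before the start and fits the C/EBP motif TTGCNNAA. That motif was found on either strand in 9.56% of 32851 mouse windows of the same length. The other motifs searched on both strands were a longer NF-kB motif, the short NF-kB motif GGGANTTCC, the STAT motif TTCNNNGAA and the palindromic estrogen receptor element, which 1.41%, 1.43%, 7.02% and 0.0639% of windows held. Neither of these windows held them, and the window of Cr1l also held no C/EBP motif. The Cr1l window was 41.6% G and C and the C3 window 52.0%, beside a median of 52.4% over all windows. Windows were found for 7 of the 9 genes, and only C1s1 held another match, to the C/EBP motif. C1s1 has windows for different annotated starts. The match lies in that at chr6:124542360-124542609, and that at chr6:124542322-124542571 held none.

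C3 (ENSMUSG00000024164), whose product is the substrate of every convertase, had 865 reads in the LY500307 library, against 716 in the control library. The deposited values were 839.3 in the LY500307 and 737.9 in the control library. C3 was 1.14-fold higher (1.029 to 1.26), an interval that lies just above 1 and spans it when widened to 99%. With a pseudocount of 1.033 on each deposited value, its log2 ratio was 0.19 and stood above that of 82.2% of the 11384 genes at or above the floor. That floor is a deposited value of 33.0 in at least 1 library.

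Cr1l (ENSMUSG00000016481) encodes a membrane regulator that dismantles convertases on mouse cells. It had 828 reads in the LY500307 library, against 585 in the control library, which is 1.33-fold higher (1.197 to 1.48). The log2 ratio of 0.41 exceeded that of 96.1% of genes at or above the floor. Among the 2347 genes with 1000 to 2000 reads over both libraries, a range that holds both C3 and Cr1l, 5.79% were at least 1.2-fold higher and 18.3% had an interval wholly above 1.

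C1qbp (ENSMUSG00000018446) was described as a receptor for the globular heads of C1q, but most of its protein resides in the mitochondrial matrix. It had the most reads of the set, 3918 in the LY500307 library against 3939 in the control library. After scaling it stood at 0.937 of the control value (0.896 to 0.979), a log2 ratio of −0.09. That places it above 37.1% of genes at or above the floor, close to the middle of the distribution, although its interval lies below 1. Scaled by total reads, the log2 ratio was −0.06 and the interval spanned 1.

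**Figure D1:**
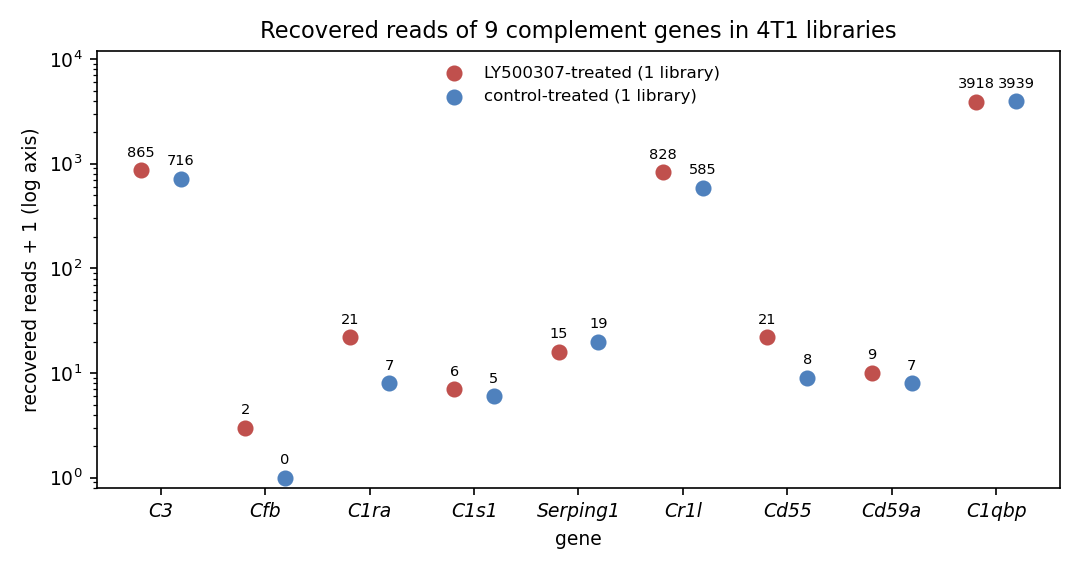
Recovered reads of each of the 9 genes in the LY500307-treated and the control-treated library, plotted as reads plus 1 on a log axis and labelled with the reads, with 1 library per group and no error bars. C1qbp, C3 and Cr1l have at least 585 reads in each library, and the other 6 genes have at most 21.

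C3, Cr1l and C1qbp were the 3 members at or above the floor. Of these 3, none was at least 1.5-fold higher or lower, where 1.8% of all genes that reached the floor were higher and 1.97% lower by that much. At 1.2-fold, Cr1l was the 1 member counted as higher, against 10.5% of genes, and no member was lower, against 15.9%. The counting interval lay above 1 for C3 and Cr1l, as for 18.1% of genes, and below 1 for C1qbp, as for 23.7%. The log2 ratio was above 0 for 2 of the 3 members, against 47.2% of genes, and below 0 for 1, against 52.8%. The median log2 ratio of the 3 members was 0.19, beside −0.02 over all genes that reached it, and with so few members it is the value of C3.

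The reads also gave ratios between members within a library, which do not depend on how the libraries were scaled. They are not corrected for the trend in GC content and length described below. In log2 that trend was 0.20 for Cr1l, −0.083 for C3 and −0.070 for C1qbp, so these ratios carry its differences between genes. There were 0.957 Cr1l reads per C3 read in the LY500307 library, against 0.817 in the control library, a ratio 1.17 times as high (1.01 to 1.36). There were 4.53 C1qbp reads per C3 read in the LY500307 library, against 5.50 in the control library, 0.823 times the control ratio (0.738 to 0.919). The Cr1l reads per C1qbp read were 0.211 in the LY500307 and 0.149 in the control library, 1.42 times as high (1.27 to 1.60).

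The lead of Cr1l over C3 was no longer seen when transcript GC content was taken into account. Across the 11349 nuclear genes that reached the floor, the Spearman correlation between log2 ratio and GC content of the longest transcript was −0.59, a description across genes that share these libraries. Cr1l is among the most AT-rich transcripts, with 37.8% GC, and only 1.78% of those genes lie below it. Genes within 1 percentage point of its GC content had a median log2 ratio of 0.22. C3 has 53.3% GC, and genes within 1 percentage point of that had a median of −0.10. After removal of a trend in GC content and length, the log2 ratio of Cr1l was 0.21, below its counting interval, and that of C3 was 0.27. Both remained above 0, Cr1l at percentile 88.8 and C3 at percentile 91.9 of the genes at or above the floor. The gap between them was smaller than either counting interval, so their order after removal is not resolved. C1qbp, with 51.3% GC, was then at −0.025, and genes within 1 percentage point of its GC content had a median of −0.05.

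**Figure D2:**
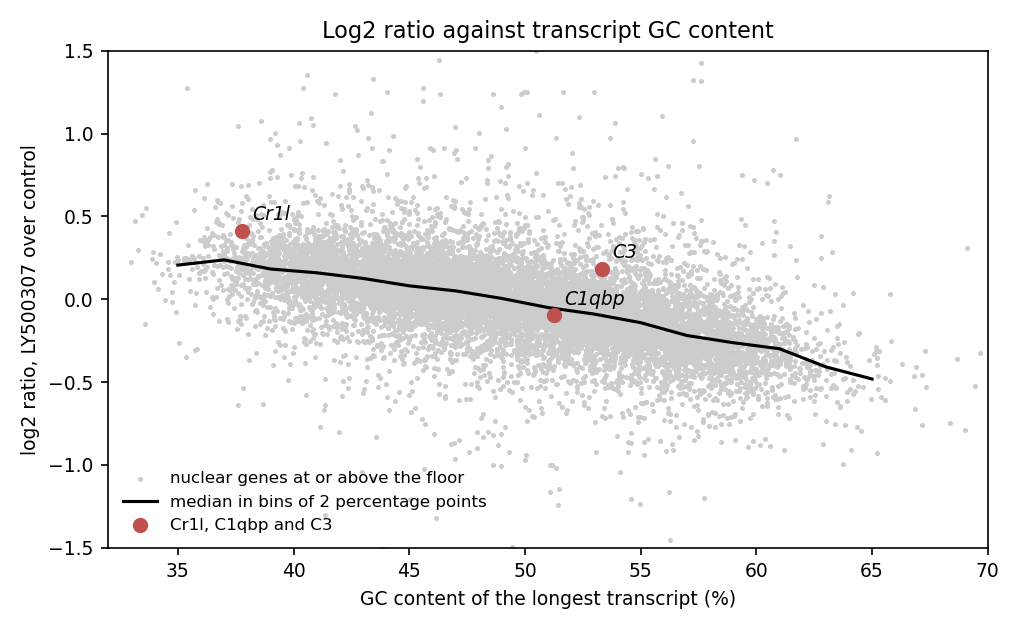
Log2 ratio of the LY500307-treated over the control-treated library against the GC content of each gene's longest transcript, for nuclear genes at or above the floor in grey, with the median in bins of 2 percentage points as a line and Cr1l, C3 and C1qbp in red. Points beyond the axis limits are not drawn. Cr1l at 37.8% GC lies above a line that is itself above 0, and C3 at 53.3% GC lies above a line that is below 0.

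**Figure D3:**
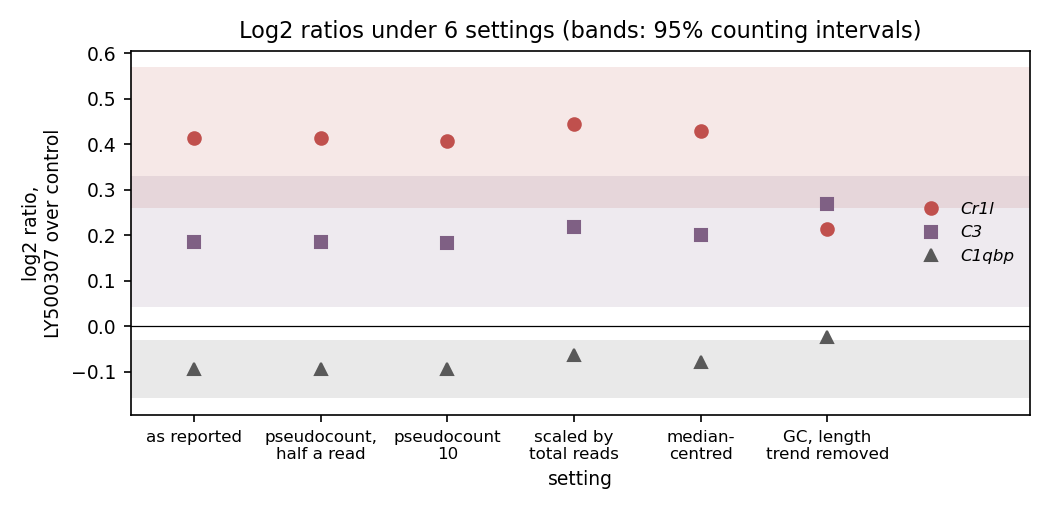
Log2 ratio of the LY500307-treated over the control-treated library for Cr1l, C3 and C1qbp under 6 settings on the horizontal axis, with bands for each gene's 95% counting interval. Only removal of the GC and length trend takes a value out of its band, to 0.21 for Cr1l and to −0.025 for C1qbp.

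Cd55, a GPI-anchored regulator that speeds the decay of convertases, and C1ra, the protease that activates C1s within the C1 complex, had higher ratios but few reads. Cd55 (ENSMUSG00000026399) had 21 reads in the LY500307 and 8 in the control library, 2.47-fold higher (1.05 to 6.45). C1ra (ENSMUSG00000055172) had 21 reads in the LY500307 and 7 in the control library, 2.82-fold higher (1.16 to 7.87). Both intervals exclude 1 narrowly and span several-fold. Among the 1238 genes with 20 to 40 reads over both libraries, 9.13% were at least 2-fold higher and 5.41% at least 2-fold lower, and 6.06% had an interval above 1 and 3.8% below 1. The log2 ratios of 1.21 for Cd55 and 1.38 for C1ra were 1.11 for Cd55 and 1.43 for C1ra after removal of the trend. With a pseudocount of 10 they were 0.74 for Cd55 and 0.82 for C1ra.

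For the other 4 members no difference was detectable at this depth. Serping1 (ENSMUSG00000023224), whose product C1 inhibitor blocks C1r and C1s, had 15 reads in the LY500307 and 19 in the control library, a fold of 0.743 (0.352 to 1.54). C1s1 (ENSMUSG00000038521), the protease that cleaves C4 and C2, had 6 reads in the LY500307 and 5 in the control library, a fold of 1.13 (0.287 to 4.68). Cd59a (ENSMUSG00000032679), the GPI-anchored inhibitor of the lytic pore, had 9 reads in the LY500307 and 7 in the control library, a fold of 1.21 (0.401 to 3.82). Cfb (ENSMUSG00000090231), which supplies the catalytic subunit of the alternative C3 convertase, had 2 reads in the LY500307 and 0 in the control library. A count of 0 allows up to 3 reads, so no fold is given for Cfb. C3 was thus read in both libraries beside almost no reads of Cfb, the protease gene of the alternative convertase.

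**Figure D4:**
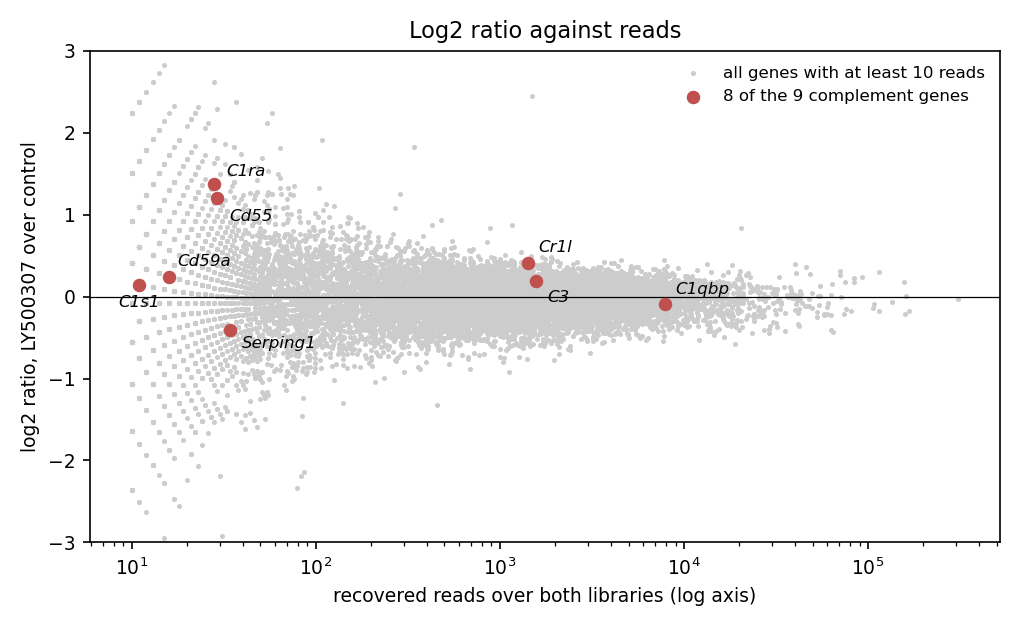
Log2 ratio of the LY500307-treated over the control-treated library against the reads of both libraries on a log axis, for all genes with at least 10 reads in grey and 8 of the 9 complement genes in red, without Cfb. Points beyond the axis limits are not drawn. C1ra at 1.38 and Cd55 at 1.21 lie in the wide spread of genes with few reads, and Cr1l at 0.41 lies near the upper edge of genes of like depth.

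Some of these reads are uncertain. Cd55, Cd59a, C1ra and C1s1 have close copies in the mouse genome, Cd55b, Cd59b, C1rb and C1s2, and the treatment of reads with several matches is not given. C1rb had 1 read in each library, and the other copies were not analysed here. Antisense genes overlap exons of Cd55 and C1s1, and Gm20547 overlaps exons of Cfb on the same strand. The libraries were stranded, but the use of strand in counting is not given, so reads of overlapping genes cannot be told apart. Gm20547 was not listed in the deposited table. Whether reads shared between genes were counted is not given, so the few reads of Cfb may understate its level.

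Levels between genes were compared as reads per kilobase of the longest transcript, scaled to the reads of each library as in RPKM. On this scale C1qbp stood first, with 130 in the LY500307 and 136 in the control library, above 97.5% of all genes in each. Cr1l came second, with 14.2 (13.3 to 15.2) in the LY500307 and 10.4 (9.60 to 11.3) in the control library. C3 came next, with 11.2 (10.4 to 11.9) in the LY500307 and 9.59 (8.90 to 10.3) in the control library. The intervals of Cr1l and C3 were apart in the LY500307 library and overlapped in the control library. Serping1 followed with a level of 0.562 in the LY500307 and 0.739 in the control library, and C1ra with 0.466 in the LY500307 and 0.161 in the control library. Cd55 had 0.444 in the LY500307 and 0.176 in the control library, and Cd59a had 0.330 in the LY500307 and 0.267 in the control library. C1s1 had a level of 0.135 in the LY500307 and 0.117 in the control library, and Cfb was last with 0.0481 in the LY500307 and 0 in the control library. This is the order of the LY500307 library. From Serping1 down, the counting intervals of neighbours in it overlapped in that library. In the control library the interval of Serping1, 0.445 to 1.15, lay above those of C1ra, Cd55, C1s1 and Cfb and overlapped that of Cd59a. With the median length of a gene's transcripts in place of the longest, C3 stood above Cr1l, at 94.2 against 44.0 in the LY500307 and 80.98 against 32.3 in the control library. The median length of C3 transcripts is only 608 bases, against 5136 for the longest. For Cr1l it is 1246 bases, against 3859 for the longest, so the order depends on these annotated lengths.

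The rest of the pathway was sparse. Of 54 other complement genes, 29 were listed, 14 had at least 10 reads over both libraries and 7 reached the floor. Of those 7, 1 was at least 1.5-fold higher and 1 at least 1.5-fold lower, against 1.8% and 1.97% of all genes. The median log2 ratio of the 7 was 0.04. The higher gene was Cd46 and the lower Masp2. Cd46 reached the floor only in the LY500307 library and Masp2 only in the control library, where each was higher. The floor thus admitted both by the difference that is counted, so no excess over all genes is drawn from these counts. Cd46, a convertase cofactor gene whose mouse product is best known from sperm, is the neighbour of Cr1l among coding genes of chromosome 1. It had 39 reads in the LY500307 and 21 in the control library, 1.75-fold higher (1.004 to 3.13), with 39.1% GC and a log2 ratio of 0.78 that was 0.57 after removal of the trend. Masp2, the lectin pathway protease that cleaves C4, had 28 reads in the LY500307 and 50 in the control library, 1.90-fold lower (1.17 to 3.13). Masp1, its partner protease gene, had 165 reads in the LY500307 and 119 in the control library, 1.31-fold higher (1.025 to 1.67).

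Among recognition and early components, C4a and C4b, near-identical copies of component C4, had 12 and 19 reads in the LY500307 library, against 21 and 12 in the control library. Together they had 31 reads in the LY500307 and 33 in the control library, a fold of 0.884 (0.524 to 1.49). C2, the catalytic subunit of the classical convertase, had 12 reads in the LY500307 and 15 in the control library, and the lectin gene Fcna had 29 in the LY500307 and 22 in the control library. Cfp, which encodes the convertase stabiliser properdin, had 64 reads in the LY500307 and 51 in the control library, a fold of 1.18 (0.805 to 1.74). C8g, a subunit of the terminal complex, had 25 reads in the LY500307 and 15 in the control library, and Hc, which encodes C5, had 2 in the LY500307 and 4 in the control library. None of these intervals excluded 1.

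Among regulators and receptors, Clu, a fluid-phase inhibitor of the lytic pore with many other roles, had 766 reads in the LY500307 and 776 in the control library, a fold of 0.929 (0.840 to 1.028), and a log2 ratio of −0.11 that was 0.076 after removal of the trend. Susd4, a membrane regulator gene, had 19 reads in the LY500307 and 26 in the control library. Itgb2, the beta subunit gene of complement receptors 3 and 4, had 727 reads in the LY500307 and 755 in the control library, a fold of 0.907 (0.818 to 1.01), although the alpha subunit gene Itgam had 1 read in each library. Calr, an endoplasmic reticulum chaperone gene whose product can bind C1q, had 10974 reads in the LY500307 and 10041 in the control library, 1.029-fold higher (1.001 to 1.06). Cd93, an endothelial and myeloid receptor gene, had 10 reads in the LY500307 and 4 in the control library, and the C3a receptor gene C3ar1 had 5 in the LY500307 and 1 in the control library. C1qa, a subunit gene of C1q, had 4 reads in the LY500307 and 3 in the control library.

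**Figure D5:**
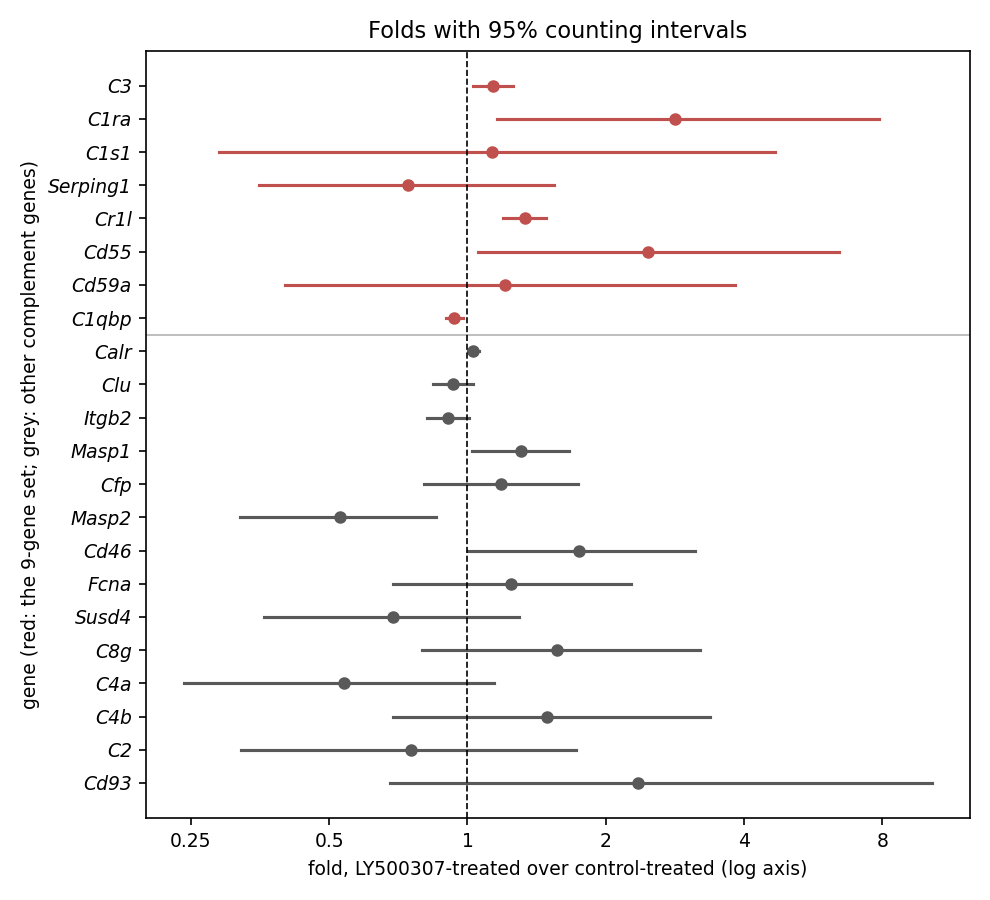
Fold of the LY500307-treated over the control-treated library on a log axis with its 95% counting interval, for 8 of the 9 genes of the set in red and for 14 other complement genes with at least 10 reads in grey. The intervals of C3, Cr1l, C1ra and Cd55 lie above 1 and that of C1qbp below 1. Among the grey genes those of Masp1, Cd46 and Calr lie above 1 and that of Masp2 below 1.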

How the data were processed

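Stranded total RNA libraries of 4T1 cells were prepared after removal of ribosomal RNA, per the labels' protocols. CASAVA 1.8, Bowtie2 and mm9 appear in the submitters' processing notes without roles. For the counter, the annotation and the normalization tool, names are not given in the sources used. The deposited signal per gene consists of read counts that the authors multiplied by 1 factor per library, as the values themselves show. Division by the value of 1 read, 0.970 in the LY500307 and 1.031 in the control library, gave values within 0.01 of a whole number for 99.96% and 99.95% of genes. Vanishing values were read as 0. With 1 library per group no test was run, and no count model was fitted to the recovered reads.

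Symbols, lengths and GC contents came from GENCODE M21, and 19443 of 19498 IDs matched. The pseudocount, 1.033, was the 5th and the floor the 40th percentile of values above 0. The trend was fitted by robust regression in statsmodels 0.14.6 on cubic splines of GC content and log2 length. Each had 5 degrees of freedom and was limited to percentiles 1 to 99. The fit was tested on simulated data with a linear GC trend. Its trend error was checked there only over a middle range of GC content, which leaves out Cr1l. Motifs were searched in RefSeq windows. Reads carry no molecular identifiers, so they are not independent molecules. The 9 genes and the lists were chosen with earlier results of these data known. All 9 genes and the other complement genes with at least 10 reads were to be named; of the other lists, the 2 highest and 2 lowest log2 ratios at or above the floor. Those under 10 reads that are named, and the ranges of 20 to 40 and 1000 to 2000 reads, were chosen after the values were seen.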

Additional observations from a re-analysis of the deposited data

How the results depend on the processing

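No paired analysis was possible because each group has 1 library, and no library could be left out. Removal of the GC and length trend moved the log2 ratio of Cr1l to 0.21 and that of C1qbp to −0.025, both outside their counting intervals. Without a floor, 2 members, Cd55 and C1ra, were at least 1.5-fold higher, and 4 members had an interval above 1. Shares over all genes without a floor, or with 99% intervals, are not given, so those counts cannot be judged against them. Among genes with 20 to 40 reads, 9.13% were at least 2-fold higher and 6.06% had an interval above 1. At 1.2-fold, 1 member at or above the floor was higher, against 10.5% of genes. With 99% intervals, 1 member, Cr1l, lay above 1. Scaled by library totals, 0 members had an interval below 1, since C1qbp then spanned it. The median length of transcripts kept 2 members in their place by level in the LY500307 and 4 in the control library. The other alternatives, namely other pseudocounts, median-centring and a floor of 100 reads, left these counts as reported. Depth limits the 6 members below the floor, and cultures were not replicated.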

Other observations

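Genes linked to members by function were described by lists written with earlier results known. Among all genes that reached the floor, 47.2% lay above 0 and 52.8% below, beside which the counts of each list are to be read. Cd55 and Cd59a are held in the membrane by GPI anchors. Of 27 genes of GPI anchor synthesis, transfer and remodelling at or above the floor, 14 lay above 0 and 13 below, with a median log2 ratio of 0.01 beside −0.02 over all genes. The highest were Pgap1, an inositol deacylase of GPI anchors, with 321 reads in the LY500307 and 158 in the control library (1.91-fold higher, 1.58 to 2.33), and Pigh, a subunit of the first enzyme of the pathway, with 73 in the LY500307 and 36 in the control library (1.91-fold higher, 1.26 to 2.93). The lowest were Pgap3, with 28 reads in the LY500307 and 43 in the control library (1.63-fold lower, 0.9903 to 2.73), and Pigo, with 448 in the LY500307 and 594 in the control library (1.41-fold lower, 1.24 to 1.60). Pgap3 reached the floor only in the control library, where it was higher. Pgap1 had a log2 ratio of 0.93 and Pigh one of 0.91. With the trend removed these were 0.70 for Pgap1 and 0.82 for Pigh, and Pgap3 had a log2 ratio of −0.44 and Pigo one of −0.31. Of 19 other GPI-anchored protein genes, 7 lay above 0 and 12 below, with a median of −0.14 that was 0.040 after removal of the trend. Their lowest were Plaur at −0.42 and Efna4 at −0.35, and their highest Cd109 at 0.22 and Nt5e at 0.14. The counting intervals of Efna4 and Cd109 spanned 1, and those of Plaur and Nt5e did not. With the trend removed these were −0.31 for Plaur, −0.14 for Efna4, 0.11 for Cd109 and 0.11 for Nt5e.

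Of 11 inducible transcription factor and acute-phase genes at or above the floor, 10 lay below 0, against 52.8% of all genes. The median of the 11 was −0.13, and −0.094 after removal of the trend. With the trend removed, Lcn2 at 0.089 and Stat3 at 0.051 also lay above 0, beside Cp, so the count below 0 was smaller. Cebpb, a C/EBP factor gene, had 539 reads in the LY500307 and 860 in the control library (1.69-fold lower, 1.52 to 1.89). Its transcript has 67.2% GC, and its log2 ratio of −0.76 was −0.36 after removal of the trend, outside that interval. Cebpd, another, had 80 in the LY500307 and 119 in the control library (1.58-fold lower, 1.18 to 2.12). Its log2 ratio of −0.65 was −0.59 after removal of the trend. The highest were Cp, the acute-phase gene of ceruloplasmin, at 0.41 and Stat3 at −0.0016. C3, at 0.19, stood above all of these 11 genes but Cp, and after removal of the trend C3 was at 0.27 and Cp at 0.26. Cp had 96 reads in the LY500307 and 68 in the control library, a fold of 1.33 (0.964 to 1.84). That interval spans 1 and holds the C3 fold of 1.14, so the order of C3 and Cp is not resolved.

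Of 7 other serpin genes at or above the floor, 5 lay above 0, against 47.2% of all genes, and 2 below, with a median log2 ratio of 0.05. Their highest were Serpine2 at 0.73 and Serpinb9 at 0.54, and their lowest Serpinh1 at −0.34 and Serpinb2 at −0.26. Serpine2 had 43 reads in the LY500307 and 24 in the control library (1.69-fold higher, 1.001 to 2.91). It reached the floor only in the LY500307 library, where it was higher. The counting interval of Serpinb2 spanned 1, and those of Serpinb9 and Serpinh1 did not. With the trend removed Serpine2 was at 0.67, Serpinb9 at 0.42, Serpinh1 at −0.13 and Serpinb2 at −0.41. Of the targets of C1 inhibitor and kinin receptors, 2 genes reached the floor, Plat at 0.34 and Bdkrb2 at 0.10. The counting intervals of both spanned 1. With the trend removed Plat was at 0.27 and Bdkrb2 at 0.24. Of 15 mitochondrial matrix genes set beside C1qbp, 6 lay above 0 and 9 below, against 52.8% of all genes, with a median of −0.03 that was 0.040 after removal of the trend. Hspd1 was the highest at 0.29, followed by Slirp at 0.20, and Clpp was the lowest at −0.25, followed by Mtfmt at −0.22. The counting intervals of Slirp and Mtfmt spanned 1, and those of Hspd1 and Clpp did not. With the trend removed Hspd1 was at 0.26, Slirp at 0.11, Clpp at 0.00063 and Mtfmt at −0.18.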
